A study of Homo sapiens with 9 samples.

Results

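The genes of cystine uptake and glutathione synthesis were followed in MDA-MB-231 cells, a triple-negative breast cancer cell line, after knockdown of the zinc transporter ZIP7 (gene SLC39A7). They were listed by name for their place in the pathway, with earlier results of these data known. There were 10 of them among the 58395 gene identifiers in the deposited counts: SLC7A11, SLC3A2, CBS, CTH, GCLC, GCLM, GSS, GSR, CHAC1 and GGCT. All 10 had a row, and 9 of them were among the 16761 genes that passed the low-count filter and were tested. The exception was CBS, which had 0 counts in all 9 libraries.

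All cells grew in DMEM with serum and received an siRNA by transfection 96 h before their RNA was taken. The siNC group received a non-targeting control siRNA, the siZIP7_1 group a first siRNA against ZIP7, and the siZIP7_2 group a second one. Each group had 3 libraries. The knockdown was transient and rested on 1 siRNA per group in 1 cell line. The control group was shared, so the comparisons of the knockdown groups with siNC were not independent of each other. No label said whether the libraries of a group came from separate cultures, so the p-values measured only the spread between these libraries, which may be technical.

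Cysteine is the scarce building block of glutathione, the main small thiol of the cell. Cells import its oxidized form, cystine, through system xc-, in which SLC7A11 is the transporter subunit and SLC3A2 the heavy chain that carries it to the membrane. They can also make cysteine from methionine by transsulfuration, through CBS and then CTH. Glutamate-cysteine ligase, made of the catalytic subunit GCLC and the modifier subunit GCLM, and then glutathione synthetase (GSS) build glutathione. Glutathione reductase (GSR) restores it after oxidation with electrons from NADPH, and CHAC1 and GGCT take part in its breakdown. Loss of cystine or glutathione leaves membrane lipids open to peroxidation and to ferroptosis, an iron-dependent form of cell death, which is the setting in which the study examined ZIP7.

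The main pattern was that the ZIP7 siRNAs did not move these genes alike. This was not particular to them. With siZIP7_2, 38.1% of all tested genes were higher and 40.6% lower than with siZIP7_1. With siZIP7_1, CHAC1 rose 2.23-fold and GCLM fell 2.01-fold, while SLC7A11 did not pass the test. With siZIP7_2, SLC7A11 and GCLC both rose 1.5-fold, while GGCT fell 1.85-fold and GSS fell 1.62-fold. GCLC was the one gene of the 9 that passed the test as higher with both siRNAs, and GGCT the one that passed as lower with both, with siZIP7_1 libraries that overlapped siNC. CTH and CHAC1 rose with siZIP7_1 and fell with siZIP7_2.

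The target came first as a check of the labels. SLC39A7 measured 321, 343 and 322 CPM in the siNC libraries, where CPM is the read count divided by the TMM-scaled size of the library. The values were 35.4, 32.9 and 38.6 CPM with siZIP7_1, and 20.5, 19.5 and 17.6 CPM with siZIP7_2. The mean was thus 10.8% of siNC with siZIP7_1 and 5.84% with siZIP7_2, and no library of one group reached the range of another. The siZIP7_2 level was also below the siZIP7_1 level, at a log2 difference of -0.89 (SE 0.066; edgeR quasi-likelihood test, adjusted p = 4.89e-13).

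Between 24153785 and 30454419 reads were counted on genes in a library. Chi-squared per gene was 2.47 to 6.68 for the 9 pairs of libraries that shared a group and 160 to 301 for the 27 pairs that did not. All 5 marker genes expected in this line were detected, among them VIM at 5333 to 5688 CPM in siNC and at 2618 to 2937 CPM in the knockdown groups. The other markers in siNC, siZIP7_1 and siZIP7_2 did not all fall. AXL stood at 1834 to 2025, 1705 to 1780 and 972 to 1040 CPM. CD44 stood at 787 to 861, 438 to 502 and 1727 to 1826 CPM. EGFR stood at 649 to 688, 555 to 580 and 856 to 933 CPM, and KRT18 at 238 to 258, 366 to 380 and 183 to 197 CPM. Of the markers that are low in such cells, ESR1 and PGR stayed at or under 0.582 CPM, CDH1 at or under 4.52 CPM and EPCAM at or under 10.3 CPM, and ERBB2 lay between 56.7 and 91.5 CPM. A list of 6 markers of other cell types summed to 4.25 to 4.88 CPM in siNC, 2.58 to 3.13 CPM with siZIP7_1 and 10.3 to 11.6 CPM with siZIP7_2, most of the last from PECAM1, and ALB and HBB stayed at or under 0.0776 CPM throughout. Reads outside annotated genes made up 7.43% to 8.28% of all deposited reads in the siNC libraries, 7.8% to 9.62% with siZIP7_1 and 9.99% to 11.5% with siZIP7_2. The part of these differences in the results was not tested.

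CBS needs its sequence to be read correctly. CBS (ENSG00000160200, chr21:43053191-43076943, minus strand) has a near copy on the same chromosome, CBSL (ENSG00000274276, chr21:6444869-6468040, minus strand), in the GENCODE 29 annotation of GRCh38. Of the 1887 windows of 50 bases in the CBS coding sequence, 87.2% were also found in the CBSL coding sequence. The first 60 coding bases of both genes (CBS chr21:43072134-43072193, CBSL chr21:6463812-6463871) are shown because a read from them cannot be placed on one copy.
CBS: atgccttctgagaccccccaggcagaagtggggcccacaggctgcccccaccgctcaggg
CBSL: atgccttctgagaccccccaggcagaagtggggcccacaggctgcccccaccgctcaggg
The sequences are identical in this stretch, which holds the start codon. CBSL also had 0 counts in all 9 libraries, and the deposited counts held 0 reads with several alignments, so reads that match both copies were not counted on either. Over all 7048 windows of the CBS transcripts, untranslated parts included, 54.5% were also found in other genes, and no read was counted from the rest either. A count of 0 allows up to 3 counts, or 0.0985 to 0.124 CPM, for counting error alone. This limit holds for reads that could be placed on CBS alone, and reads from the shared stretches were not measured here.

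**Figure D1:**
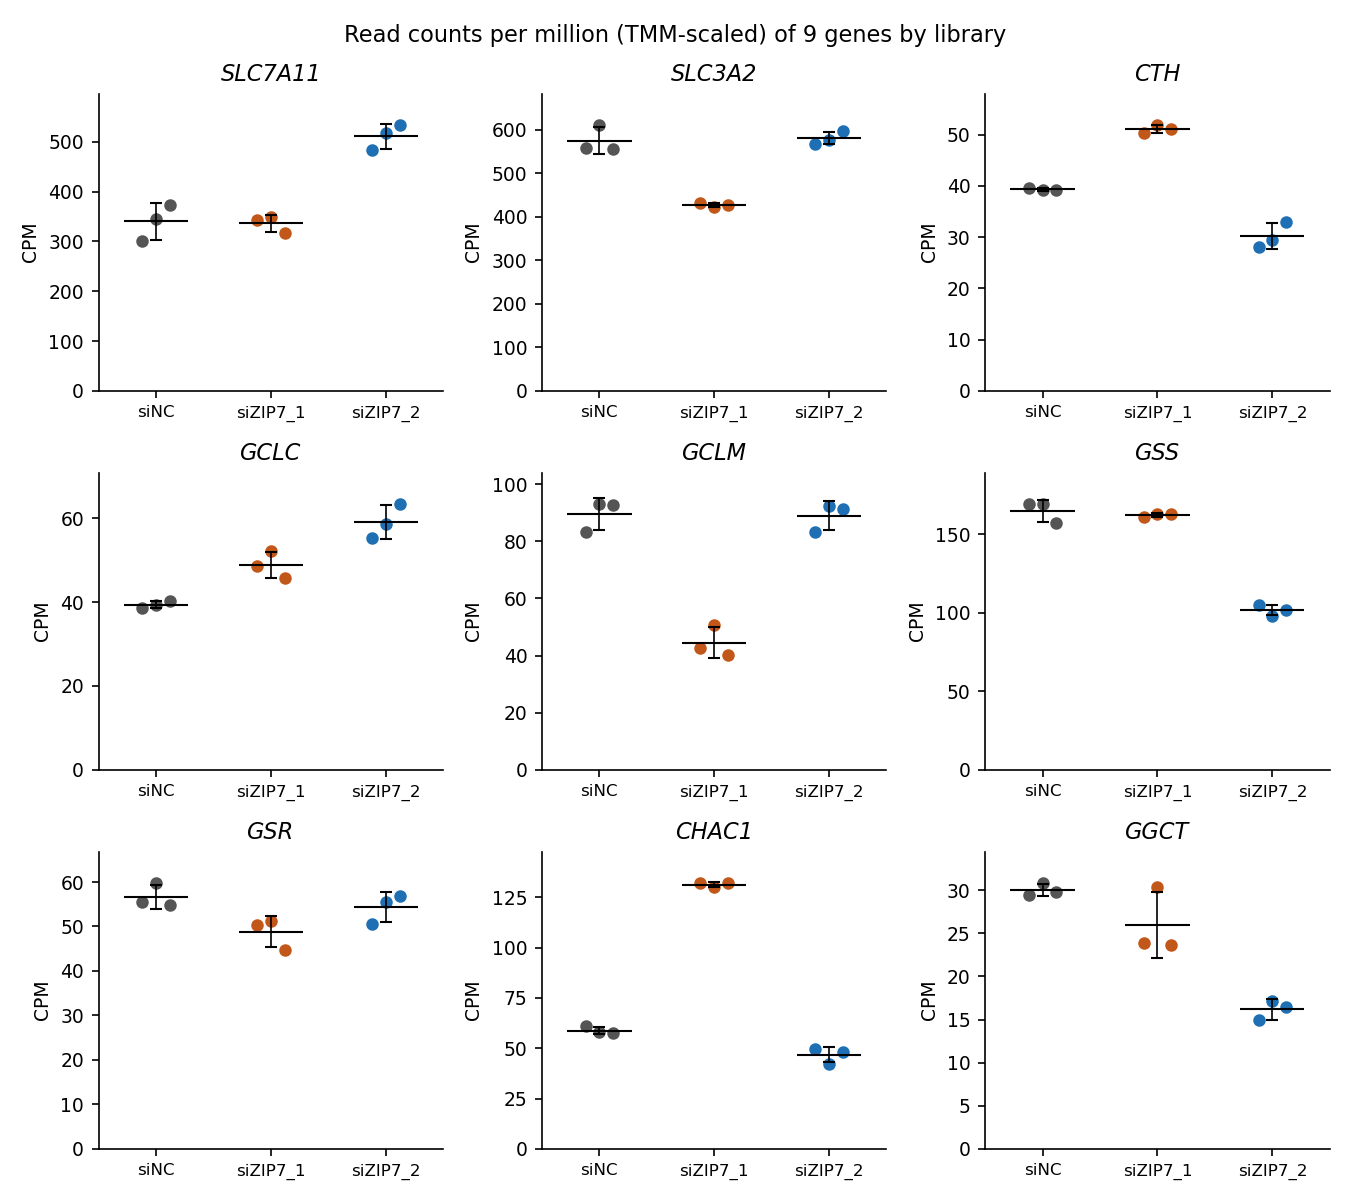
Each panel plots 1 gene, with TMM-scaled CPM on the vertical axis from 0 and the 3 siRNA groups on the horizontal axis. Points are libraries, the horizontal bar is the mean of 3 libraries and the error bar is 1 SD. CHAC1 stands at 130 to 132 CPM with siZIP7_1 against 57.4 to 60.9 CPM in siNC, and SLC7A11 at 483 to 533 CPM with siZIP7_2 against 301 to 374 CPM in siNC.

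In the plot of levels by library, system xc- came apart at the RNA level, with one subunit changed by each siRNA. SLC7A11 (ENSG00000151012, chr4:138164097-138242349) measured 301, 345 and 374 CPM in siNC and 342, 349 and 317 CPM with siZIP7_1. It measured 483, 517 and 533 CPM with siZIP7_2. The siZIP7_1 libraries lay within the siNC range, and all siZIP7_2 libraries lay above every other library. The change was -0.02 on the log2 scale for siZIP7_1 (95% interval -0.14 to 0.10, adjusted p = 0.777) and 0.59 for siZIP7_2 (SE 0.060, adjusted p = 5.22e-10). SLC7A11-AS1, on the opposite strand, overlaps 8.97% of the exonic length of SLC7A11, and the strand setting of the counting is not given in the sources used here, so reads of the pair cannot be told apart in that stretch. The antisense gene itself was low, at mean CPM of 0.275, 1.8 and 0.59 in siNC, siZIP7_1 and siZIP7_2.

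SLC3A2 (ENSG00000168003, chr11:62856102-62888875), the heavy chain, measured 557, 610 and 556 CPM in siNC. It fell to 432, 423 and 428 CPM with siZIP7_1, a change of -0.43 (SE 0.047, adjusted p = 3.56e-09). It stood at 568, 577 and 596 CPM with siZIP7_2, a change of 0.02 (95% interval -0.08 to 0.11, adjusted p = 0.774). The siZIP7_1 libraries were all below siNC and the siZIP7_2 libraries overlapped it. These were bulk libraries, so less RNA per cell and fewer cells with the transcript cannot be told apart.

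CTH (ENSG00000116761, chr1:70411218-70439851), the cystathionine gamma-lyase that releases cysteine in transsulfuration, moved in opposite directions. Its libraries were tight in siNC, at 39.6, 39.2 and 39.1 CPM. They stood at 50.3, 51.8 and 51 CPM with siZIP7_1 and at 28.1, 29.5 and 33 CPM with siZIP7_2. No library of one group reached another group. CTH rose 1.3-fold with siZIP7_1 (log2 0.38, SE 0.057, adjusted p = 1.09e-06) and fell 1.3-fold with siZIP7_2 (log2 -0.38, SE 0.060, adjusted p = 1.43e-06).

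For glutamate-cysteine ligase, the first and rate-limiting step of glutathione synthesis, the catalytic and modifier subunits did not move together. GCLC (ENSG00000001084, chr6:53497341-53616970) measured 38.5, 39.3 and 40.2 CPM in siNC, 48.7, 52.1 and 45.8 CPM with siZIP7_1 and 55.2, 58.5 and 63.3 CPM with siZIP7_2. The groups stood in that order with no overlap. The log2 change of GCLC was 0.31 with siZIP7_1 (SE 0.060, adjusted p = 3.32e-05) and 0.58 with siZIP7_2 (SE 0.059, adjusted p = 4.7e-10), and the siZIP7_2 level was above the siZIP7_1 level by 0.27 (adjusted p = 0.000103). Other annotated genes overlap 6.2% of its exonic length, nearly all of it by AL033397.1, which reached at most 0.0776 CPM.

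GCLM (ENSG00000023909, chr1:93885205-93909456) measured 83.2, 92.9 and 92.8 CPM in siNC. It measured 42.7, 50.7 and 40.1 CPM with siZIP7_1, with every library below the siNC range. With siZIP7_2 it measured 83.1, 92.4 and 91.4 CPM, overlapping siNC. GCLM fell to 49.6% of siNC with siZIP7_1, a log2 change of -1.01 (SE 0.067, adjusted p = 5.06e-14). The siZIP7_2 value was -0.0099 (95% interval -0.14 to 0.12, adjusted p = 0.894), and the difference between the siRNAs, 1.00, passed the test (adjusted p = 3.97e-14).

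GSS (ENSG00000100983, chr20:34928433-34956027), which adds glycine to complete glutathione, showed the reverse arrangement. Its libraries measured 169, 169 and 157 CPM in siNC and 161, 163 and 163 CPM with siZIP7_1, which overlapped. They measured 105, 98.2 and 102 CPM with siZIP7_2, all below both other groups. GSS fell with siZIP7_2, at a log2 change of -0.70 (SE 0.047, adjusted p = 6.75e-14), and the siZIP7_1 value was -0.02 (95% interval -0.12 to 0.07, adjusted p = 0.643).

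GSR (ENSG00000104687, chromosome 8), the reductase that recycles oxidized glutathione, fell to 86.3% of siNC with siZIP7_1. It measured 55.4, 59.7 and 54.8 CPM in siNC, 50.4, 51.3 and 44.8 CPM with siZIP7_1 and 50.5, 55.6 and 56.9 CPM with siZIP7_2. The siZIP7_1 libraries were all below siNC, and the siZIP7_2 libraries overlapped both other groups. GSR fell with siZIP7_1, at a log2 change of -0.21 (SE 0.059, adjusted p = 0.00227). The siZIP7_2 value was -0.06 (95% interval -0.18 to 0.06, adjusted p = 0.384). The difference between the siRNAs, 0.16 (adjusted p = 0.0188), was lost without siZIP7_1 replicate 3, where it was 0.0866 with an adjusted p of 0.215, and without siZIP7_2 replicate 2 (adjusted p = 0.0735) or replicate 3 (adjusted p = 0.11).

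CHAC1 (ENSG00000128965, chr15:40952962-40956519), a gamma-glutamyl cyclotransferase that acts on glutathione and is known as a target of the ATF4 stress pathway, changed most among the 9 genes with siZIP7_1. It measured 60.9, 58.1 and 57.4 CPM in siNC and 132, 130 and 132 CPM with siZIP7_1. With siZIP7_2 it measured 49.7, 42.4 and 48.3 CPM. The siZIP7_1 libraries were all above siNC and the siZIP7_2 libraries all below it. CHAC1 rose 2.23-fold with siZIP7_1 (95% interval 1.05 to 1.27 on the log2 scale, adjusted p = 1.01e-17), and its log2 change was -0.33 with siZIP7_2 (SE 0.056, adjusted p = 4.69e-06). The difference of -1.49 between the siRNAs (adjusted p = 2.21e-20) was also the largest in size among the 9 genes.

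CHAC2 (ENSG00000143942), the related enzyme with a lower and constant activity toward glutathione, was not one of the 10. It did not follow CHAC1 with siZIP7_1, where CHAC1 rose, but it fell like CHAC1 with siZIP7_2. It measured 13.9, 15.6 and 17.3 CPM in siNC, 12.3, 13.4 and 11.5 CPM with siZIP7_1 and 5.43, 5.17 and 4.84 CPM with siZIP7_2. The groups did not overlap. CHAC2 fell with both siRNAs, by 0.34 (adjusted p = 0.0011) and by 1.60 (adjusted p = 1.25e-14) on the log2 scale.

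GGCT (ENSG00000006625, chr7:30496621-30504844), the cyclotransferase that converts gamma-glutamyl amino acids downstream, measured 29.5, 30.8 and 29.8 CPM in siNC and 23.9, 30.4 and 23.7 CPM with siZIP7_1. It measured 14.9, 17.2 and 16.4 CPM with siZIP7_2, all below the other groups. GGCT fell with siZIP7_2, at a log2 change of -0.89 (SE 0.082, adjusted p = 6.2e-11). With siZIP7_1 the value was -0.21 (SE 0.077, adjusted p = 0.0172), but replicate 2 of that group lay within the siNC range. That call was lost with DESeq2 (adjusted p = 0.0506), without siNC replicate 2 (adjusted p = 0.074), without siZIP7_1 replicate 1 (adjusted p = 0.113) and without siZIP7_1 replicate 3 (adjusted p = 0.121). A gene on the same strand, AC005154.5, overlaps 27.6% of the exonic length of GGCT and had 0 counts in every library, and reads from that stretch may have been set aside as ambiguous, so the level of GGCT is uncertain.

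**Figure D2:**
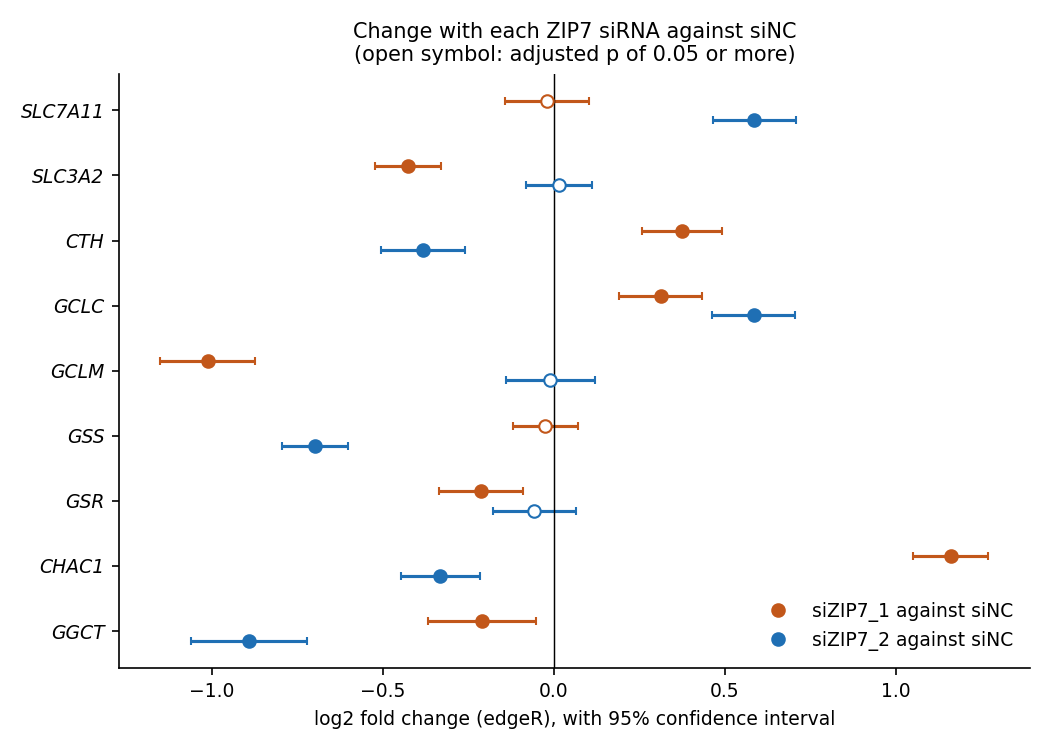
The log2 fold change against siNC is on the horizontal axis for 9 genes, 1 row each, with siZIP7_1 in orange, siZIP7_2 in blue and bars for the 95% confidence interval of the fit. Filled symbols passed an adjusted p of 0.05 and open symbols did not. CTH and CHAC1 lie on opposite sides of 0 with the siRNAs, and GCLC lies above 0 with both.

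Counted over the 9 tested genes, 3 rose and 4 fell with siZIP7_1, and 2 did not pass. Over all genes tested, 34.8% rose and 35.9% fell in that comparison. With siZIP7_2, 2 rose, 4 fell and 3 did not pass, beside 38.5% higher and 39.3% lower over all genes. Changes of at least 1.5-fold that passed the test were seen for 2 of the 9 with siZIP7_1, where 38.4% of all genes had one, and for 3 with siZIP7_2, where 48.1% had one. SLC7A11 lay just above this cut with siZIP7_2 (log2 0.586) and GCLC just below it (log2 0.584). SLC7A11 was 0.534 with no low-count filter and GCLC was 0.69 with upper-quartile normalization, so the siZIP7_2 count depends on the setting. Each of these counts of the 9 genes was within 2 genes of the share over all genes. Their median log2 change was -0.02 with siZIP7_1 and -0.06 with siZIP7_2, beside medians of -0.0069 and -0.0018 over all genes. The libraries did not overlap between siZIP7_1 and siNC for 6 of the 9 genes, where this held for 72.1% of all genes, and between siZIP7_2 and siNC for 6 of the 9, where it held for 78.7%.

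The siRNAs compared with each other gave 5 genes higher and 4 lower with siZIP7_2 than with siZIP7_1. In that comparison 38.1% of all genes were higher and 40.6% lower, so most of the transcriptome separated the siRNAs too. A difference of at least 1.5-fold was seen for 6 of the 9, beside 50% of all genes. The groups did not overlap for 8 of the 9, GSR being the other one, and for 79.7% of all genes. SLC7A11, SLC3A2, GCLC, GCLM and GSR were higher with siZIP7_2, and CTH, GSS, CHAC1 and GGCT were lower.

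Levels of different genes were compared per length, as RPKM, the TMM-scaled CPM divided by the exonic length in kilobases. That length joined all annotated exons of a gene (8646 bases for GCLC, 2058 for CHAC1). It can exceed the length of the transcripts present, so the order of genes depends on the annotation. In siNC, SLC3A2 led at 111 RPKM, followed by SLC7A11 at 35.3, CHAC1 at 28.6, GSS at 26.7, GGCT at 18.8, GCLM at 16.5, CTH at 16.3, GSR at 15.1 and GCLC at 4.55 RPKM. Of these neighbours, GCLM and CTH overlapped between libraries. With siZIP7_1, CHAC1 at 63.8 RPKM stood above SLC7A11 at 34.8 RPKM, and GCLM at 8.21 RPKM stood below GSR at 13 RPKM, with no overlap between neighbours in the order. With siZIP7_2, SLC7A11 reached 53 RPKM, still under SLC3A2 at 112 RPKM. In that group GSS at 16.5 RPKM overlapped GCLM at 16.4 RPKM, and GSR at 14.5 RPKM overlapped CTH at 12.5 RPKM. By this measure GCLC was the lowest of the 9 in all 3 groups, at 5.65 RPKM with siZIP7_1 and 6.82 RPKM with siZIP7_2.

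**Figure D3:**
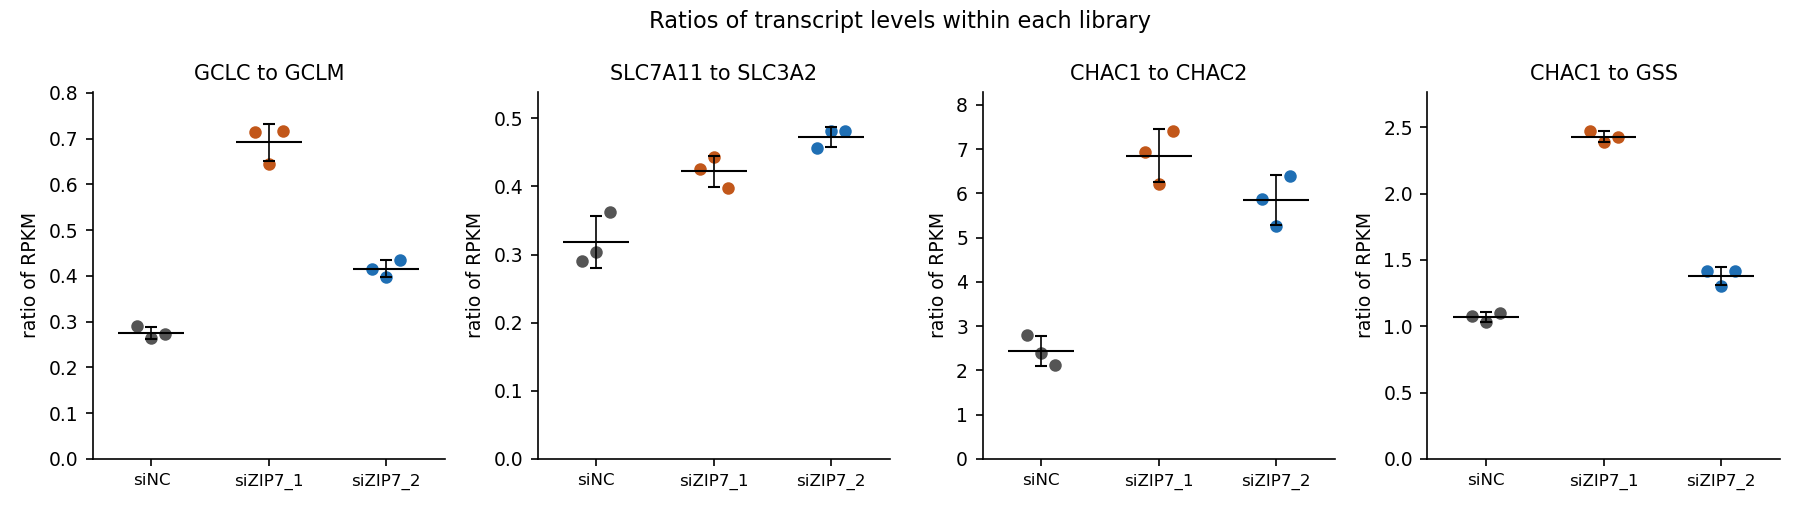
Each panel plots a ratio of RPKM values taken within a library, on a vertical axis from 0, for the 3 siRNA groups. Points are libraries, the horizontal bar is the mean of 3 and the error bar is 1 SD. The GCLC to GCLM ratio is 0.265 to 0.29 in siNC, 0.645 to 0.716 with siZIP7_1 and 0.397 to 0.435 with siZIP7_2.

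Ratios within a library do not depend on the scaling between libraries and describe the balance of a pair of transcripts. Their absolute size depends on the exonic lengths used, which are the same in all groups. GCLC to GCLM, the ratio of catalytic to modifier transcripts, was 0.276 ± 0.013 in siNC (SD, n = 3), 0.692 ± 0.0405 with siZIP7_1 and 0.416 ± 0.0188 with siZIP7_2. SLC7A11 to SLC3A2 was 0.319 ± 0.038, 0.422 ± 0.0231 and 0.473 ± 0.0144 in the same order. Both ratios were higher with either siRNA than in siNC with no overlap. SLC3A2 and GCLM were lower under siZIP7_1, SLC7A11 was higher under siZIP7_2, and GCLC was higher under both. CHAC1 to GSS, breakdown against the last step of synthesis, was 1.07 ± 0.0329 in siNC, 2.43 ± 0.0382 with siZIP7_1 and 1.38 ± 0.0707 with siZIP7_2. CHAC1 to CHAC2 was 2.44 ± 0.343, 6.85 ± 0.592 and 5.85 ± 0.56. With siZIP7_2 both of these ratios were higher although CHAC1 itself fell (log2 -0.33). GSS (log2 -0.70) and CHAC2 (log2 -1.60) fell more in that group. Each ratio in each knockdown group gave p = 0.1 against siNC by a two-sided exact permutation test, which is the smallest p that 3 libraries against 3 allow, so none could pass 0.05. Between the siRNAs, CHAC1 to CHAC2 overlapped (exact permutation p = 0.2), and the other 3 ratios did not (exact permutation p = 0.1).

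A list of 125 further genes around cystine and glutathione put these values in context, and 100 of them were tested. With siZIP7_1, 34 rose, 41 fell and 25 did not pass. With siZIP7_2, 36 rose, 49 fell and 15 did not pass. Over all genes tested, 34.8% rose and 35.9% fell with siZIP7_1, and 38.5% rose and 39.3% fell with siZIP7_2. The counts of each list below are to be read beside these shares. The genes named from it are those that changed at least 1.5-fold in one direction with both siRNAs, plus a few regulators and relatives of the 10 genes.

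**Figure D4:**
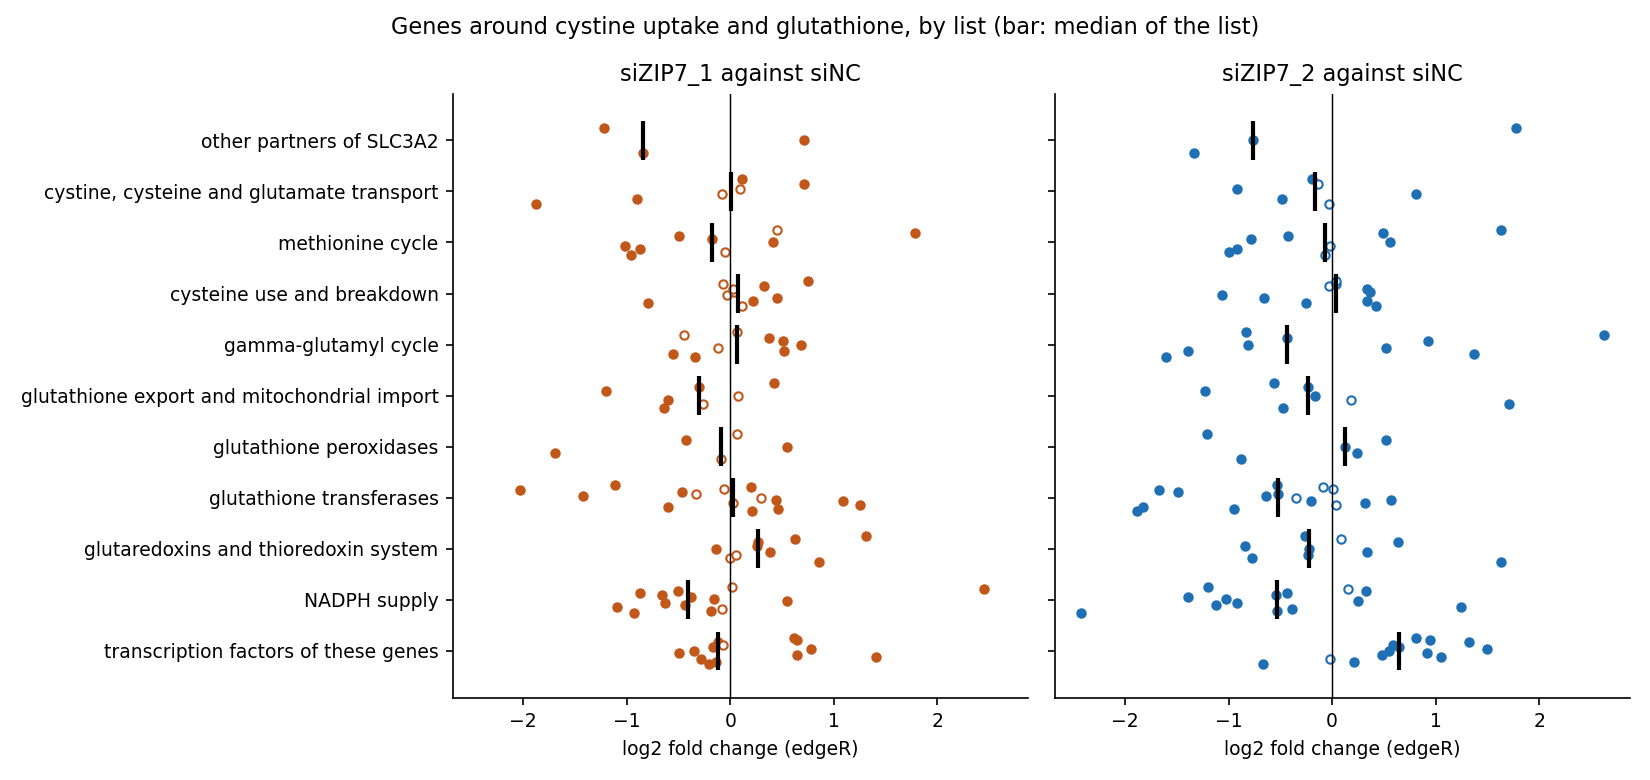
The log2 fold change against siNC is on the horizontal axis for the 100 tested genes in 11 lists, with siZIP7_1 on the left and siZIP7_2 on the right. Filled points passed an adjusted p of 0.05, open points did not, and the black bar is the median of the list. The NADPH list has its median at -0.41 with siZIP7_1 and -0.54 with siZIP7_2, and the transcription factor list at -0.12 and 0.65.

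Transport beyond system xc- changed in both directions, where 70.7% and 77.8% of all genes passed with the first and second siRNA. Of the other partners of SLC3A2, 3 were tested, and 1 rose and 2 fell with each siRNA. SLC7A5, the large neutral amino acid transporter that pairs with SLC3A2, fell from 1899 ± 117 CPM in siNC (SD, n = 3) to 1060 ± 13.9 and 754 ± 24.5 CPM with the first and second siRNA (log2 -0.84 and -1.33, adjusted p = 4.16e-15 and 1e-19). Per length, SLC7A5 stood at 400, 223 and 159 RPKM in the 3 groups, above SLC3A2 at 111, 82.5 and 112 RPKM. Of 6 tested genes of cystine, cysteine and glutamate transport, 2 rose and 2 fell with siZIP7_1, and 1 rose and 3 fell with siZIP7_2.

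Transcripts around methionine and cysteine moved in both directions. Of 9 tested genes of the methionine cycle, 2 rose and 5 fell with siZIP7_1, and 3 rose and 4 fell with siZIP7_2, beside 70.7% and 77.8% of all genes that passed in either direction. AHCY, which releases homocysteine for transsulfuration, fell from 346 ± 17.4 CPM in siNC to 190 ± 3.75 and 184 ± 8.99 CPM (log2 -0.87 and -0.91). Of 10 genes of cysteine use and breakdown, 4 rose and 1 fell with siZIP7_1, and 4 rose and 3 fell with siZIP7_2.

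Genes that handle glutathione changed in both directions, where 70.7% and 77.8% of all genes passed with the first and second siRNA. In the gamma-glutamyl cycle, which includes CHAC2, 4 of 9 genes rose and 2 fell with siZIP7_1, and 4 rose and 5 fell with siZIP7_2. Of 7 genes of export and mitochondrial import, 1 rose and 4 fell with siZIP7_1, and 1 rose and 5 fell with siZIP7_2. ABCG2, an efflux pump, fell from 16.8 ± 0.896 CPM to 7.3 ± 0.466 and 7.1 ± 0.319 CPM. Glutathione peroxidases numbered 5, of which 1 rose and 2 fell with siZIP7_1 and 3 rose and 2 fell with siZIP7_2.

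Glutathione transferases, which attach glutathione to other molecules, numbered 15. With siZIP7_1, 6 rose and 5 fell, beside 34.8% and 35.9% of all genes. With siZIP7_2, 2 rose and 9 fell, beside 38.5% and 39.3% of all genes. MGST1, the membrane-bound transferase with peroxidase activity, fell from 96.1 ± 2.99 CPM to 23.6 ± 3.09 and 30.1 ± 0.966 CPM (log2 -2.03 and -1.67). GSTP1 fell from 116 ± 6.8 CPM to 43.1 ± 1.38 and 74 ± 0.892 CPM (log2 -1.42 and -0.64). GSTM1 fell from 5.3 ± 0.749 CPM to 3.53 ± 0.341 and 1.49 ± 0.106 CPM, and it is uncertain because it belongs to a family of similar genes whose reads can be shared. Of 9 genes of the glutaredoxin and thioredoxin system, 6 rose and 1 fell with siZIP7_1, and 3 rose and 5 fell with siZIP7_2. GLRX, a glutathione-dependent oxidoreductase, rose from 28.3 ± 0.513 CPM to 51.5 ± 1.3 and 87.8 ± 3.84 CPM (log2 0.86 and 1.63).

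The genes that supply NADPH, which GSR needs, fell more often than they rose. Of 14 tested, 2 rose and 10 fell with siZIP7_1, and 3 rose and 10 fell with siZIP7_2, beside the 35.9% and 39.3% of all genes that fell. ME3, a mitochondrial malic enzyme, fell from 69.3 ± 2.83 CPM to 44.7 ± 2.32 and 36.7 ± 1.72 CPM (log2 -0.63 and -0.92).

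Transcription factors and other regulators of these genes were measured as RNA. Of 13, 5 rose and 7 fell with siZIP7_1, beside 34.8% and 35.9% of all genes. With siZIP7_2, 11 rose and 1 fell, beside 38.5% and 39.3% of all genes. The list was chosen with earlier results of these data known, and it holds activators and the repressor BACH1 alike. ATF4, the activator of amino acid stress genes such as CHAC1 and SLC7A11, fell from 294 ± 6.61 CPM in siNC to 255 ± 11.2 and 186 ± 6.06 CPM (log2 -0.21 and -0.66, adjusted p = 0.000246 and 1.96e-13). DDIT3, a factor of the same stress response, rose from 26.4 ± 0.35 CPM to 41.2 ± 2.24 and 36.8 ± 2.27 CPM (log2 0.64 and 0.48). ATF3 rose from 15 ± 0.643 CPM to 25.8 ± 0.673 and 42.3 ± 1.42 CPM (log2 0.78 and 1.49).

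NFE2L2, which encodes the antioxidant activator NRF2, fell with siZIP7_1 by 0.14 on the log2 scale (adjusted p = 0.0132) and rose with siZIP7_2 by 0.22 (adjusted p = 0.000239). KEAP1, which holds NRF2 back, fell by 0.28 with siZIP7_1 (adjusted p = 6.66e-06), and its siZIP7_2 value was -0.02 (adjusted p = 0.706). BACH1, the repressor that competes with NRF2 at antioxidant response elements, rose from 72.8 ± 4.26 CPM to 194 ± 7.12 and 151 ± 3.65 CPM (log2 1.41 and 1.05). Of the small MAF genes, whose products pair with both factors, transcripts of MAFG (log2 0.64 and 0.95) and MAFK (log2 0.61 and 0.81) rose with both siRNAs. MAFF, outside the naming rule and added after its values were seen, fell with siZIP7_1 (log2 -0.12, adjusted p = 0.0221) and rose with siZIP7_2 (log2 1.32). These are RNA levels, and the activity of NRF2 and ATF4 is set largely by protein stability and translation.

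Promoter letters were read for the 6 of the 10 genes with an entry in the RefSeq promoter table of GRCh38.p14, over 250 bases before the start site and on both strands: SLC3A2, CBS, CTH, GCLC, GCLM and CHAC1. The motifs were TGATGNAAN for the ATF4 and C/EBP element (in 3.13% of 35116 promoters), TGACNNNGC for the antioxidant response element (10.9%), TGACGTCA for the cAMP response element (1.65%) and CCAAT (32%). TGATGNAAN was found in CHAC1 and TGACNNNGC in GCLM, in 1 promoter each, TGACGTCA in 0 of the 6, and CCAAT in the other 4 and in CHAC1. No match in these promoters overlapped another. The pair of single matches is shown because they were the only matches other than CCAAT in the 6 promoters. Capitals mark the match, which reads as the motif on the other strand, in 30 bases of CHAC1 (chr15:40953250-40953279, plus strand, 210 to 202 bases before the start) and of GCLM (chr1:93909446-93909475, minus strand, 34 to 26 bases before the start). These distances are from the RefSeq start. In GENCODE 29, the CHAC1 stretch lies inside the gene, downstream of the start of its longest annotated extent, and the GCLM stretch spans the start of the gene.
CHAC1: cctcccctgccGTTGCATCActcctgccag
GCLM: ctacgatttctGCTTAGTCAttgtcttcca
A match is a description of letters and not a site shown to be bound, and where no match was found, the letters were not in that window.

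The genes whose level followed SLC7A11 most closely were EGLN1, XIAP and UBTD2, with Pearson's r of 0.9878, 0.9854 and 0.9814 for log2 CPM over the 9 libraries, among the 9748 genes that averaged 10 CPM or more. EGLN1, an oxygen-sensing prolyl hydroxylase, stood at means of 77.2, 77.8 and 105 CPM in siNC, siZIP7_1 and siZIP7_2. For CHAC1 they were KHNYN, ZFHX4 and ST5, at 0.9972, 0.9971 and 0.9969. With 3 groups, a high r mainly says that the group means have a similar relative spacing on the log2 scale. It does not say that the changes were of the same size. An r over 0.95 was reached by 139 genes with SLC7A11 and by 589 with CHAC1.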

How the data were processed

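RNA-seq libraries were made from total RNA of MDA-MB-231 cells 96 h after transfection (siNC, siZIP7_1 and siZIP7_2, 3 libraries each), and groups came from the sample labels. The authors deposited raw read counts per Ensembl gene, 1 table per library, without normalization. The submitters' processing notes name Trim Galore 0.4.1, FastQC 0.11.2, STAR, HTSeq 0.6.1 and DESeq2 1.16.1; the genome build and strand setting are not given in the sources used here. Lines of the counting program's own totals (no feature, 7.43% to 11.5%; ambiguous, 2.66% to 2.91%) were left out, and reads on overlapping genes are lost as ambiguous. Of the 58395 identifiers, 58275 were in GENCODE 29 (GRCh38), which gave symbols, positions and lengths.

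The analysis used edgeR 4.0.16 in R 4.3.3, with its low-count filter, TMM, 1 quasi-likelihood fit to all 9 libraries (biological coefficient of variation 4.5%), and Benjamini-Hochberg adjustment over 16761 genes at 0.05. The SE was the log2 fold change divided by the square root of F. Floors of 3 counts cover counting error only. The steps were run on simulated counts with changes in a single group and in far fewer genes than passed here. That run cannot say how they perform on these data. Alternatives were DESeq2 1.42.0, its size factors, upper-quartile normalization, no filter, at least 10 counts in every library, only the groups compared, a replicate block, and each library left out.

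The members and lists were chosen with earlier results of these data known. Named genes were the members, SLC39A7, listed genes changed at least 1.5-fold in one direction with both siRNAs at a mean of at least 1 CPM, ATF4, NFE2L2, KEAP1, BACH1, DDIT3, CHAC2, CBSL and SLC7A5, and the 3 genes most like SLC7A11 and CHAC1. Of 125 listed genes, 124 were found; the other, GSTT1, was not analysed here. One gene that the rule names is not reported here. Promoter sequences are from RefSeq (GRCh38.p14).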

Additional observations from a re-analysis of the deposited data

Results flagged for a closer look

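All 9 tested genes differed between the ZIP7 siRNAs by the test of that difference itself, which is why they are listed here. The log2 difference, siZIP7_2 minus siZIP7_1, was 0.606 for SLC7A11, 0.441 for SLC3A2, 0.272 for GCLC, 1 for GCLM and 0.156 for GSR. It was -0.758 for CTH, -0.673 for GSS, -1.49 for CHAC1 and -0.681 for GGCT. Adjusted p ran from 2.21e-20 for CHAC1 to 0.0188 for GSR (edgeR quasi-likelihood test), and the libraries overlapped for GSR only. Of all 16761 genes, 38.1% were higher and 40.6% lower in the same comparison. SLC39A7 was itself lower with siZIP7_2, at 5.84% of siNC against 10.8%, and the part of this in the differences was not tested. Groups of 3 were too small for the search for single libraries that stand apart.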

How the results depend on the processing

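Over 16 alternative settings, 432 values of the 9 genes were recomputed, and 405 kept their direction and their side of the threshold, 8 lost the call, 1 gained it and 18 changed sign. None of the 18 passed the threshold. For siZIP7_1 against siNC, SLC7A11 was 0.00573 with upper-quartile normalization, 0.00315 with at least 10 counts in every library and -0.104 to 0.0654 with a library left out, and GSS was 0.00136 with upper-quartile normalization. For siZIP7_2 against siNC, GCLM was 0.007 with DESeq2, 0.0224 with DESeq2's size factors, 0.0965 with upper-quartile normalization, 0.0649 with at least 10 counts and -0.0707 to 0.0444 with a library left out. GSR was 0.0492, 0.0176 and -0.085 to 0.000533 under the last 3 of these. SLC3A2 was -0.0362 with no low-count filter and -0.0148 to 0.0595 with a library left out, and it passed with upper-quartile normalization (0.122, adjusted p = 0.0137), which moved the median of all genes to 0.104. The lost calls were those of GGCT with siZIP7_1 (-0.336 to -0.144 with a library left out) and of GSR between the siRNAs (0.0866 to 0.208, and 0.108 with no filter). The cause of these changes was not tested. Genes past the threshold ranged over the alternatives from 10471 to 12259 for siZIP7_1, from 11142 to 14115 for siZIP7_2 and from 11231 to 14597 between the siRNAs.

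Same-numbered libraries did not deviate together (mean r 0.0115, from -0.0493 to 0.0754 over 9 pairs). Pairs with different numbers had a mean r of -0.00579 over 18 pairs. A low r over all genes cannot tell whether a number marks a shared culture or day, which no label states. With the replicate block, 11927, 13080 and 13242 genes passed in these comparisons, and 0 calls of the 9 genes changed. Depth did not limit the tested genes, but reads shared by CBS and CBSL were not measured.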

Other observations

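Some listed genes outside the naming rule are given here, chosen after their values were seen. GPX4, the peroxidase that uses glutathione to reduce lipid peroxides, rose with both siRNAs, from a mean of 150 CPM in siNC to 219 and 164 CPM (log2 0.55 and 0.13). GPX3, a secreted peroxidase, fell to 84.6 CPM with siZIP7_1 and rose to 324 CPM with siZIP7_2 from 273 CPM in siNC. ME1, the cytosolic malic enzyme, fell from 33 to 15.5 CPM with siZIP7_1 and rose to 78.1 CPM with siZIP7_2. TXNRD1, the cytosolic thioredoxin reductase, rose from 862 to 1035 and 1340 CPM.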
